A study of Mus musculus with 8 samples.

Results

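Fibronectin, periostin and the matricellular proteins form the set of 10 genes described here: Fn1, Postn, Tnc, Tnxb, Sparc, Thbs1, Thbs2, Ctgf, Cyr61 and Wisp2. Members were chosen by symbol, and all 10 were found among the 31053 genes of the files, each with 1 identifier. Single-cell RNA sequencing had been performed on dorsal skin of female BALB/c mice aged 14 to 16 weeks, injected subcutaneously with the secretome of peripheral blood mononuclear cells (PBMCsec, 4 libraries) or with vehicle (4 libraries). Both groups share strain, sex, age and tissue, and the labels give neither a wound, a time point nor the control solution of a library. The 10x Genomics 3′ chemistry counts unique molecular identifiers (UMIs) near the end of each transcript, so splice forms such as those of fibronectin were not resolved, and nothing in the labels says whether 1 library is 1 mouse.

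Fibronectin is a large adhesive glycoprotein that cells assemble into fibrils through integrins, and that serves as an early scaffold of wound matrix. Matricellular proteins differ from collagens in that they do not primarily bear load. They bind matrix, growth factors and cell surface receptors and tune adhesion, collagen assembly and signalling, and many are scarce in resting adult tissue and abundant in wounds, scars and tumours. In skin, fibroblasts (FBs) are a main source of several of them, while keratinocytes (KCs) and the hair follicle (HF) are known sources of others.

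Of 26231 barcodes, 6150 passed the filter on gene number, UMIs and mitochondrial share, 313 to 1515 per library after PBMCsec and 151 to 1659 after vehicle. Total UMIs lay between 14753926 and 37880651 per library, and 4 barcode sequences occurred in more than 1 library. The cells fell into 36 clusters, and the 10 genes with their close relatives had been left out of the features used for clustering. Marker genes named 29 clusters as FBs (1349 cells), HF (1202), KCs (1099), T cells (TCs, 765), dendritic cells and macrophages (DC/Mac, 520), neutrophils (118), endothelial cells (ECs, 84), melanocytes (67), smooth muscle cells and pericytes (SMCs/PCs, 38) and mast cells or basophils (27). Another 7 clusters (881 cells, 14.3%) remained unnamed and are called by their leading genes. Some of them carried FB markers. The Ednrb/Col11a1 cluster had Col1a1, Col1a2, Pdgfra, Col6a1 and Col6a2, beside 4 SMC/PC markers. The Gm26523/Gfpt2 cluster had Pdgfra, Col6a1, Col6a2 and Mmp2, at a median of only 1237 UMIs per cell. The Slc26a7/Crabp1 cluster had Pdgfra and Col6a2. Where they are set beside FBs, they are not cells without FB markers. The same holds for melanocytes, at a median of 2336 UMIs per cell. In 17 of the 67, FB markers made up at least 0.2% of the UMIs. FBs numbered 159, 68, 479 and 132 in PBMCsec libraries 1 to 4, but only 28, 20, 311 and 152 in vehicle libraries 1 to 4. Each library counted as 1 replicate, so the vehicle values of libraries 1 and 2 rest on few FBs.

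Levels are given first as CPM, the UMIs of a gene scaled to the total of the same cells, with all libraries pooled or per library with at least 10 cells. Because classes and clusters were built from the same cells, differences between them are described and not tested. Orders of medians leave out units with a value in fewer than 3 libraries, which are the Gm26523/Gfpt2 cluster, SMCs/PCs and mast cells or basophils. TCs served as a background, since free RNA gives UMIs in cells that do not transcribe a gene, and their pooled levels ranged from 0.316 CPM for Ctgf to 26.5 CPM for Fn1.

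FBs were the main source of 6 of the 10 genes: they held 95.1% of all Wisp2 UMIs, 93.4% of Fn1, 92.2% of Tnxb, 82.3% of Sparc, 73.3% of Thbs2 and 72.0% of Postn. Of the FBs, 99.6% (95% exact binomial interval 99.1 to 99.9%) had at least 1 Sparc UMI, and 94.2% (92.8 to 95.4%) had 1 of Fn1. The same shares in TCs were 6.41% and 8.10%, at a median of 3342 UMIs per cell against 9205 in FBs. HF held 51.6% of the Ctgf UMIs. The other 3 genes, Tnc, Thbs1 and Cyr61, were not led by a single class (the largest share was 49.6%, Thbs1 in KCs) and were highest in epithelial or unnamed clusters. Intervals cover counting error only.

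**Figure D1:**
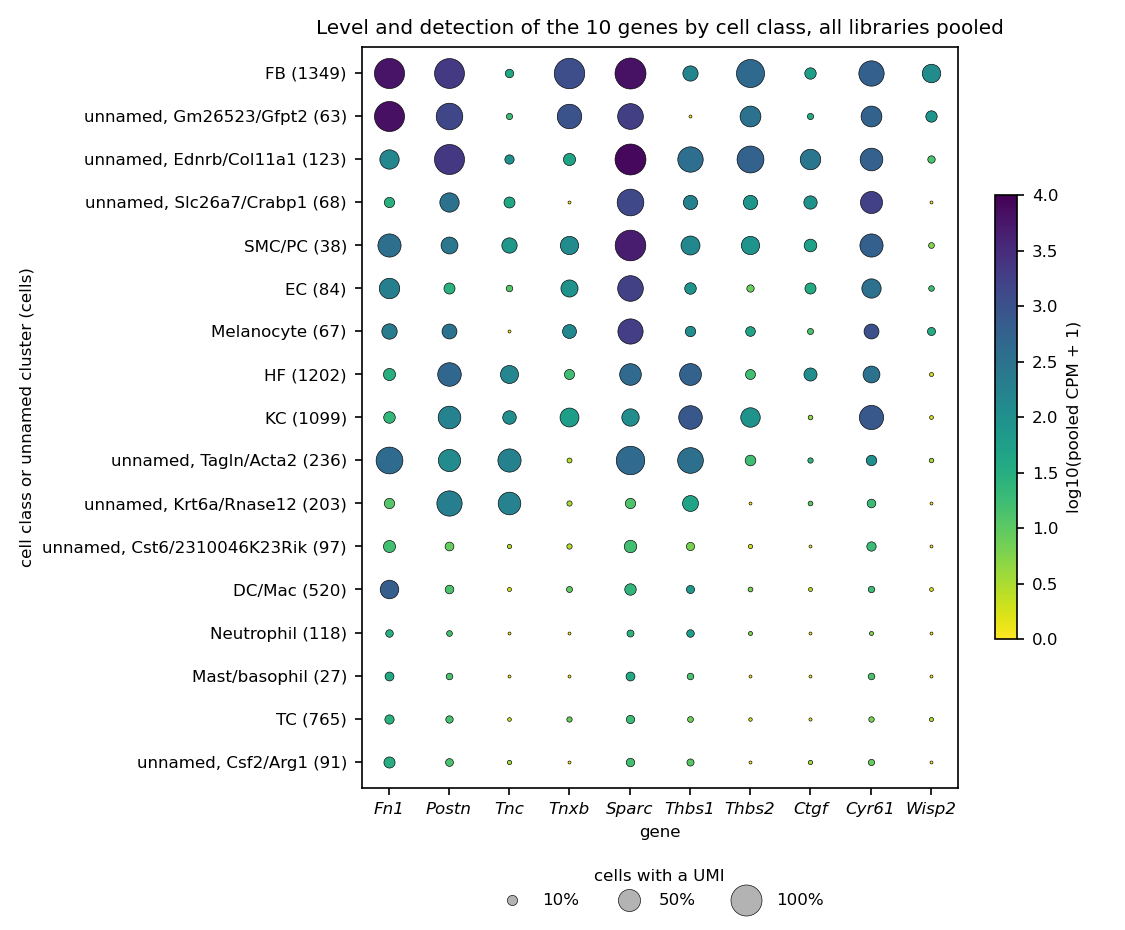
Levels of the 10 genes in each named cell class and each unnamed cluster, with the number of cells in brackets; colour gives log10(pooled CPM + 1) and dot area the share of cells with at least 1 UMI. Fn1, Tnxb and Wisp2 have their highest pooled levels in FBs and in the unnamed Gm26523/Gfpt2 cluster. Sparc reaches vessels, melanocytes and the unnamed Ednrb/Col11a1 cluster. Tnc and Thbs1 are carried mainly by KC, HF and unnamed clusters, while Cyr61 is shared by KCs (42.5% of its UMIs), FBs (33.3%) and HF (15.1%).

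Fn1 (ENSMUSG00000026193, chr1:71585520-71653200, minus strand, GRCm38, longest coding sequence of 2477 codons) was higher in FBs than in DC/Mac, the next class, in 8 of 8 libraries. The unnamed Gm26523/Gfpt2 cluster, with a value from 2 libraries only, had 6746 CPM pooled. The median level over libraries was 6218 CPM in FBs (range 1747 to 12071) and 644 CPM in DC/Mac (523 to 1011). In DC/Mac, Fn1 was found in the Lyz1/Cd209a cluster (889 CPM, 41.3% of cells) and in the C1qb/C1qa cluster (812 CPM, 46.6%), but at 12.3 CPM in the Cd207/H2-M2 cluster, which is below the TC level of 26.5 CPM. Sparc and Postn, which FBs also expressed strongly, were at 23.3 and 12.4 CPM in DC/Mac. KCs (22.1 CPM) and HF (28.7 CPM) had a CPM of Fn1 near that of TCs. Cells with an Fn1 UMI were 13.1% of KCs, 14.6% of HF and 8.10% of TCs. Median UMIs per cell were 10756, 8920 and 3342, so a like CPM does not show a like background, and this was not tested. Among ECs, the lymphatic-marker cluster led by Ccl21a and Mmrn1 had 310 CPM and the Fabp4/Plvap cluster 13.9 CPM, from 50 and 34 cells.

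Within FBs, Fn1 differed widely between clusters. The Mrgprg/Smpd3 cluster (9607 CPM), the Sfrp2/Fn1 cluster (9208 CPM) and the inflammatory-gene cluster led by Ptx3, Ccl2 and Il6 (6980 CPM) were high. Pooled values of the Ptx3/Ccl2 cluster rest largely on 1 library. PBMCsec library 3 gave 52 of its 94 cells, and PBMCsec library 2 and vehicle libraries 1 and 2 gave none. The Mgp/Hmcn2 cluster was intermediate at 3747 CPM, and the Adamts18/Peg3 cluster (1047 CPM) and the Cpz/Mfap4 cluster (916 CPM) were low. The Sfrp2/Fn1 cluster exceeded the Adamts18/Peg3 cluster in 6 of 6 libraries with at least 10 cells of both. They were closest in PBMCsec library 2, at 2050 and 1430 CPM, where the Mgp/Hmcn2 cluster had 249 CPM.

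Postn (ENSMUSG00000027750, chr3:54361109-54391037, plus strand) encodes a secreted protein that supports collagen fibril formation and fibronectin binding in skin and periosteum. Its median level was 2348 CPM in FBs (range 1333 to 3090 over 8 libraries) and 2238 CPM in the unnamed Ednrb/Col11a1 cluster (2158 to 2320 over 4 libraries), and FBs were higher in only 2 of the 4 libraries that had both. HF had a median of 595 CPM, and the Gm26523/Gfpt2 cluster, with 2 libraries, had 1411 CPM pooled. The FB clusters were ordered differently from Fn1: Postn peaked in the Adamts18/Peg3 cluster (5205 CPM pooled), where each of 6 libraries lay between 3576 and 6751 CPM, and was lowest in the Cpz/Mfap4 cluster (402 CPM). Across the 6 FB clusters, Pearson's r of log2(CPM + 10) between Fn1 and Postn was 0.09, a description over 6 points that share libraries. In HF, the Ptn/Gm973 cluster had 1476 CPM and the Krt25/Krt71 cluster 10.5 CPM.

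The bases before the second start of Postn in RefSeq (GRCm38.p6, chr3:54360957-54361106, plus strand) are shown because FBs and HF both transcribe the gene at a high level. Capitals mark a TATAAA at bases -26 to -21 from the start.
Postn: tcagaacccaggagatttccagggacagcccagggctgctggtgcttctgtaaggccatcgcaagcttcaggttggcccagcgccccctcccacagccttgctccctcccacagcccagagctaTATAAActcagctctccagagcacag

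The tenascins split between dermis and epithelium. Tenascin X, encoded by Tnxb (ENSMUSG00000033327, chr17:34670535-34719815, plus strand), associates with collagen fibrils, and its loss causes a form of Ehlers-Danlos syndrome. Tnxb had the most even level of the FB genes, with a median of 1185 CPM in FBs (995 to 1476 over 8 libraries) and 817 to 1371 CPM pooled in the 6 FB clusters. The unnamed Ednrb/Col11a1 cluster, which matched FBs for Postn, had 45.7 CPM of Tnxb. The Gm26523/Gfpt2 cluster had 953 CPM pooled from 2 libraries, and melanocytes had a median of 121 CPM. Tenascin C, encoded by Tnc (ENSMUSG00000028364, chr4:63959785-64047015, minus strand), is a large hexameric glycoprotein of wound edges and niches. It reached 638 CPM in the Pthlh/Kalrn KC cluster, with 85.8% of its cells positive, and 369 CPM in the Id4/Gnmt HF cluster (85.2%). The Pthlh/Kalrn cluster was named KC by Sbsn, Dsp, Trp63, Perp and Lgals7, not by a keratin, and it also had 3 HF markers. In the other 4 KC clusters Tnc lay between 2.16 and 12.4 CPM, so the KC level of Tnc came mainly from that cluster. The unnamed Tagln/Acta2 and Krt6a/Rnase12 clusters had 177 and 167 CPM, and the latter had 8 KC and 5 HF markers. FBs had 40.4 CPM and 6.60% positive cells, mostly from the Adamts18/Peg3 (142 CPM) and Mgp/Hmcn2 (69.5 CPM) clusters, and 5 FBs held 159 of the 494 Tnc UMIs of all FBs.

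The 150 bases before the Tnxb start (GRCm38.p6, chr17:34670385-34670534, plus strand) are shown for the tenascin found mostly in FBs. Capitals mark TGANTCA, the palindromic letters bound by AP-1 factors, at -55 to -49, which 6.75% of 32851 RefSeq promoters hold on either strand in the 250 bases before their start.
Tnxb: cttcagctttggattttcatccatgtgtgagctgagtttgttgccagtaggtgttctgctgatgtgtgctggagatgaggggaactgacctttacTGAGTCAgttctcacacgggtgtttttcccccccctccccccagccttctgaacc

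Sparc (ENSMUSG00000018593, chr11:55394500-55423183, minus strand) encodes osteonectin, a collagen-binding protein that assists procollagen processing. Its median was 8047 CPM in the Ednrb/Col11a1 cluster (4745 to 16611 over 4 libraries) and 6378 CPM in FBs (4819 to 9979 over 8), and the former was higher in 3 of 4 libraries that had both. SMCs/PCs had 4818 CPM pooled from 38 cells, and the 1 library with at least 10 of them had 2950 CPM. Melanocytes (median 1958 CPM) and ECs (1835 CPM) followed, and melanocytes were higher in 2 of 4 libraries, so these neighbours were not separated. The Fabp4/Plvap EC cluster carried 3844 CPM and the Ccl21a/Mmrn1 cluster 257 CPM, the reverse of their order for Fn1. Within FBs, the Cpz/Mfap4 cluster stood out at 36316 CPM (34295 to 41798 in 3 libraries) and the Ptx3/Ccl2 cluster was lowest at 2176 CPM. Over the 6 FB clusters Sparc went with Thbs2 (r = 0.96) and against Fn1 (r = -0.88). The Cpz/Mfap4 cluster was also led by Col1a1 and Col1a2, and it had the lowest Fn1 and Postn of the FB clusters.

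The thrombospondins were divided only in part as the tenascins were. Both bind CD47 and CD36 and regulate angiogenesis, and thrombospondin 1 also activates latent TGFβ. Thbs1 (ENSMUSG00000040152, chr2:118111876-118127133, plus strand) had its highest median in KCs (660 CPM, 76.8 to 1993 over 7 libraries), followed by HF (520 CPM, 260 to 1055). KCs were higher than HF in 5 of 7 libraries. The Ednrb/Col11a1 cluster came next at 451 CPM (169 to 503 over 4 libraries), and HF was higher in only 2 of 4 libraries that had both. The Serpinb2/Fosl1 KC cluster had 2182 CPM, and its 6 libraries lay between 1608 and 3186 CPM. The Id4/Gnmt HF cluster had 1145 CPM and the Pthlh/Kalrn KC cluster, the richest in Tnc, had 31.1 CPM. FBs had 151 CPM, with 545 CPM in the Adamts18/Peg3 cluster and 24.5 to 33.4 CPM in the 3 clusters high in Fn1. Thbs2 (ENSMUSG00000023885, chr17:14665500-14694235, minus strand) was a mesenchymal gene with a median of 492 CPM in the Ednrb/Col11a1 cluster and 434 CPM in FBs (359 to 653), higher in the former in 2 of 4 libraries. KCs had a median of 98.8 CPM, below FBs in 7 of 7 libraries. That KC signal came from the Gnai1/Ndufa4l2 (182 CPM, 77.0% of cells) and Serpinb2/Fosl1 (169 CPM, 66.8%) clusters, while the Pthlh/Kalrn cluster had 0.51 CPM. Within FBs, Thbs2 rose from 222 CPM in the Mrgprg/Smpd3 cluster to 1130 CPM in the Cpz/Mfap4 cluster.

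**Figure D2:**
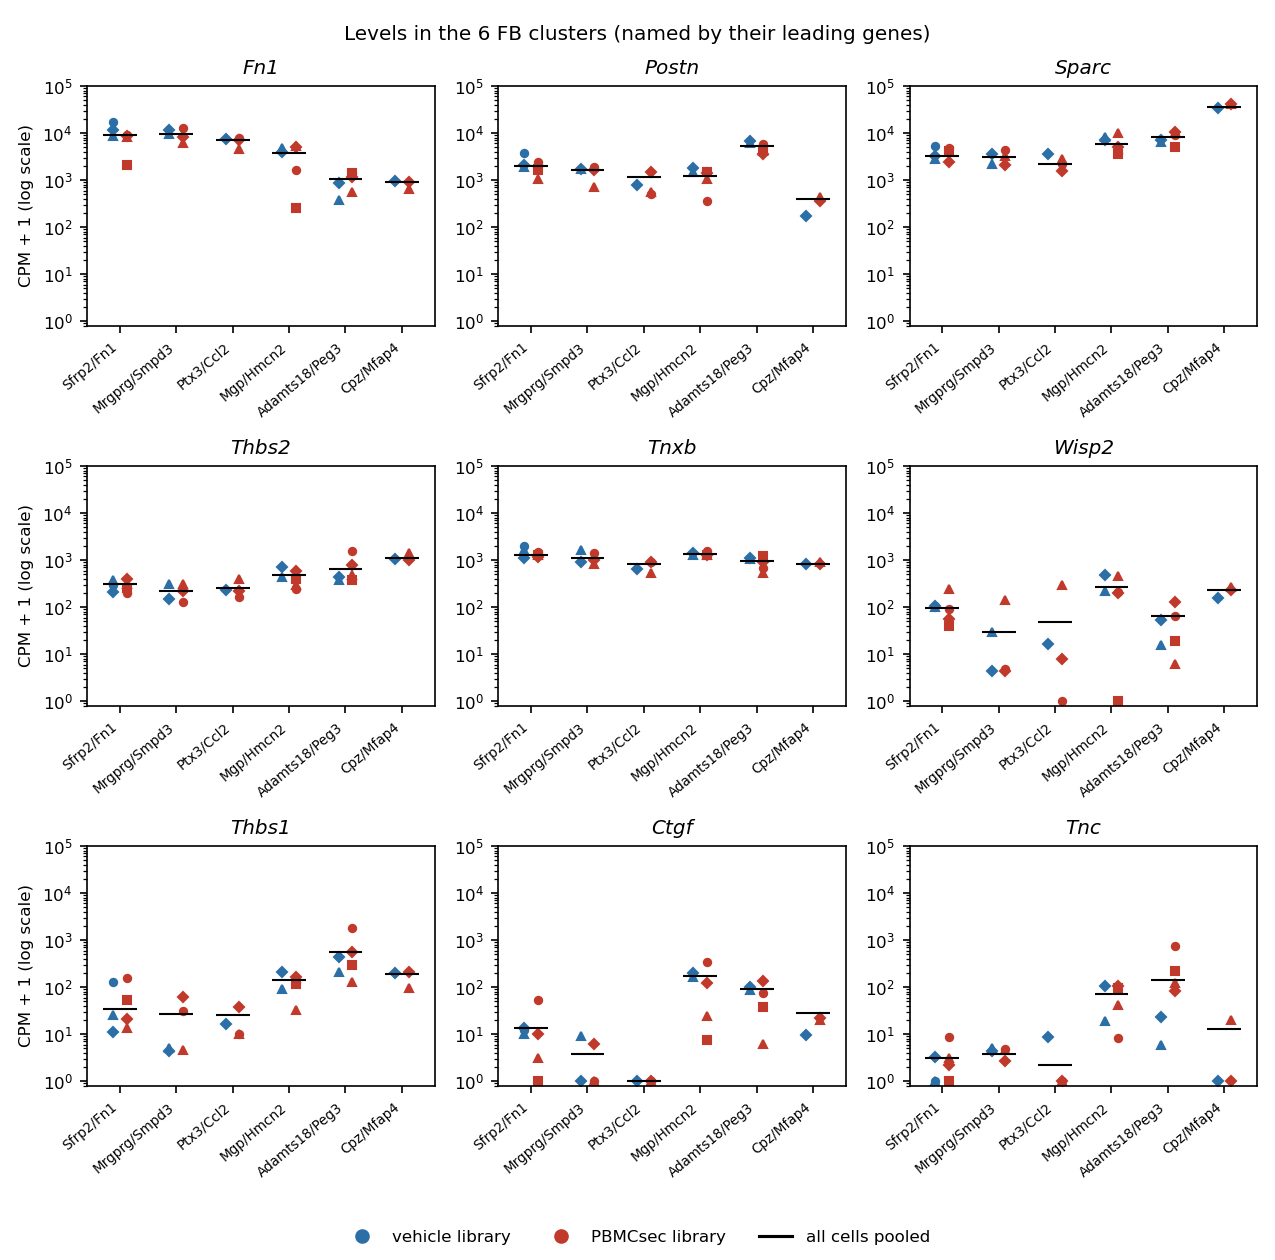
CPM + 1 on a log scale in the 6 FB clusters, each named by 2 leading genes, for 9 of the genes; blue points are vehicle and red points PBMCsec libraries with at least 10 cells of that cluster (circle, square, diamond and triangle for libraries 1 to 4), and lines are all cells pooled. Fn1 falls from 9208 and 9607 CPM in the 2 clusters at the left to 916 CPM in the Cpz/Mfap4 cluster, where Sparc reaches 36316 CPM, while Tnxb stays between 817 and 1371 CPM.

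The 3 CCN proteins are secreted regulators of adhesion and growth factor signalling. Ctgf (CCN2) and Cyr61 (CCN1) are known targets of YAP and TEAD factors and of serum response factor, and Wisp2 (CCN5) lacks the carboxy-terminal module that the others carry. Ctgf (ENSMUSG00000019997, chr10:24595442-24598683, plus strand) was highest in the Ednrb/Col11a1 cluster (median 219 CPM, 161 to 453 over 4 libraries) and in HF (123 CPM, 24.5 to 544 over 7), with 3 of 4 libraries in that order. It was 371 CPM in the Ptn/Gm973 HF cluster and 109 CPM in the Sostdc1/Ccl27a HF cluster, but 12.1 and 1.74 CPM in the other 2 HF clusters. In FBs only 12.8% of cells had a Ctgf UMI. The Mgp/Hmcn2 (171 CPM) and Adamts18/Peg3 (91.0 CPM) clusters carried most of it, and no Ctgf UMI was found in the 94 cells of the Ptx3/Ccl2 cluster, which allows up to 3.68 CPM (3 counts). KCs had 3.39 CPM.

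Cyr61 (ENSMUSG00000028195, chr3:145646976-145649981, minus strand) was found in the FB, KC, HF and melanocyte classes. Its median was 2505 CPM in the unnamed Slc26a7/Crabp1 cluster (1644 to 2899 over 3 libraries), 719 CPM in KCs, 697 CPM in FBs and 625 CPM in melanocytes. KCs exceeded FBs in 5 of 7 libraries and FBs exceeded melanocytes in 2 of 4, so the order of these 3 classes was not stable across libraries. One melanocyte value of 5391 CPM set the top of that class's range. The Gnai1/Ndufa4l2 KC cluster had 1697 CPM. Like Tnxb, Cyr61 differed little among FB clusters, with 524 to 836 CPM pooled. TCs had 5.69 CPM and DC/Mac 16.2 CPM.

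The 250 bases before the Cyr61 start, listed in RefSeq under its newer symbol Ccn1 (GRCm38.p6, chr3:145649986-145650235, minus strand), are shown because the gene is a reference target of TEAD factors. Capitals mark GGAATG, the core letters of a TEAD site, read on the opposite strand at -103 to -98, TATAAA at -25 to -20, and GGGCGG, the letters of a GC box, at -239 to -234 on the opposite strand and at -19 to -14. Of all RefSeq promoters, 12.6% hold GGAATG, 12.4% TATAAA and 32.7% GGGCGG in a window of this length, and 1.47% hold a CArG box, which was not found here in any of the 6 members with a promoter in the table. A match is a match of letters only.
Cyr61: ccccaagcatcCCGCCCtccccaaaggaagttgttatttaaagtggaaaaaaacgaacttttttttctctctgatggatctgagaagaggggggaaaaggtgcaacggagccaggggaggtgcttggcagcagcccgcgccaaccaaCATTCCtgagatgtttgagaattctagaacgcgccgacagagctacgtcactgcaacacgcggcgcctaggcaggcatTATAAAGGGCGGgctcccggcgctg

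Wisp2 (ENSMUSG00000027656, chr2:163820861-163833146, plus strand) was the most restricted gene of the set, with 1427 of 1501 UMIs in FBs. Its median was 105 CPM in FBs (21.2 to 226 over 8 libraries) and 20.9 CPM in melanocytes. The melanocyte value rests on 8 UMIs, with 0 CPM in vehicle libraries 3 and 4. With all libraries pooled, TCs, KCs, HF and DC/Mac had 0.76 to 2.21 CPM. Of the FBs, 35.1% had a UMI. The Mgp/Hmcn2 (261 CPM) and Cpz/Mfap4 (228 CPM) clusters were highest and the Mrgprg/Smpd3 cluster lowest (29.1 CPM). Single libraries differed widely within a cluster: in the Mgp/Hmcn2 cluster, PBMCsec library 2 had no UMI in 18 cells, which allows up to 19.1 CPM, and vehicle library 3 had 475 CPM.

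**Figure D3:**
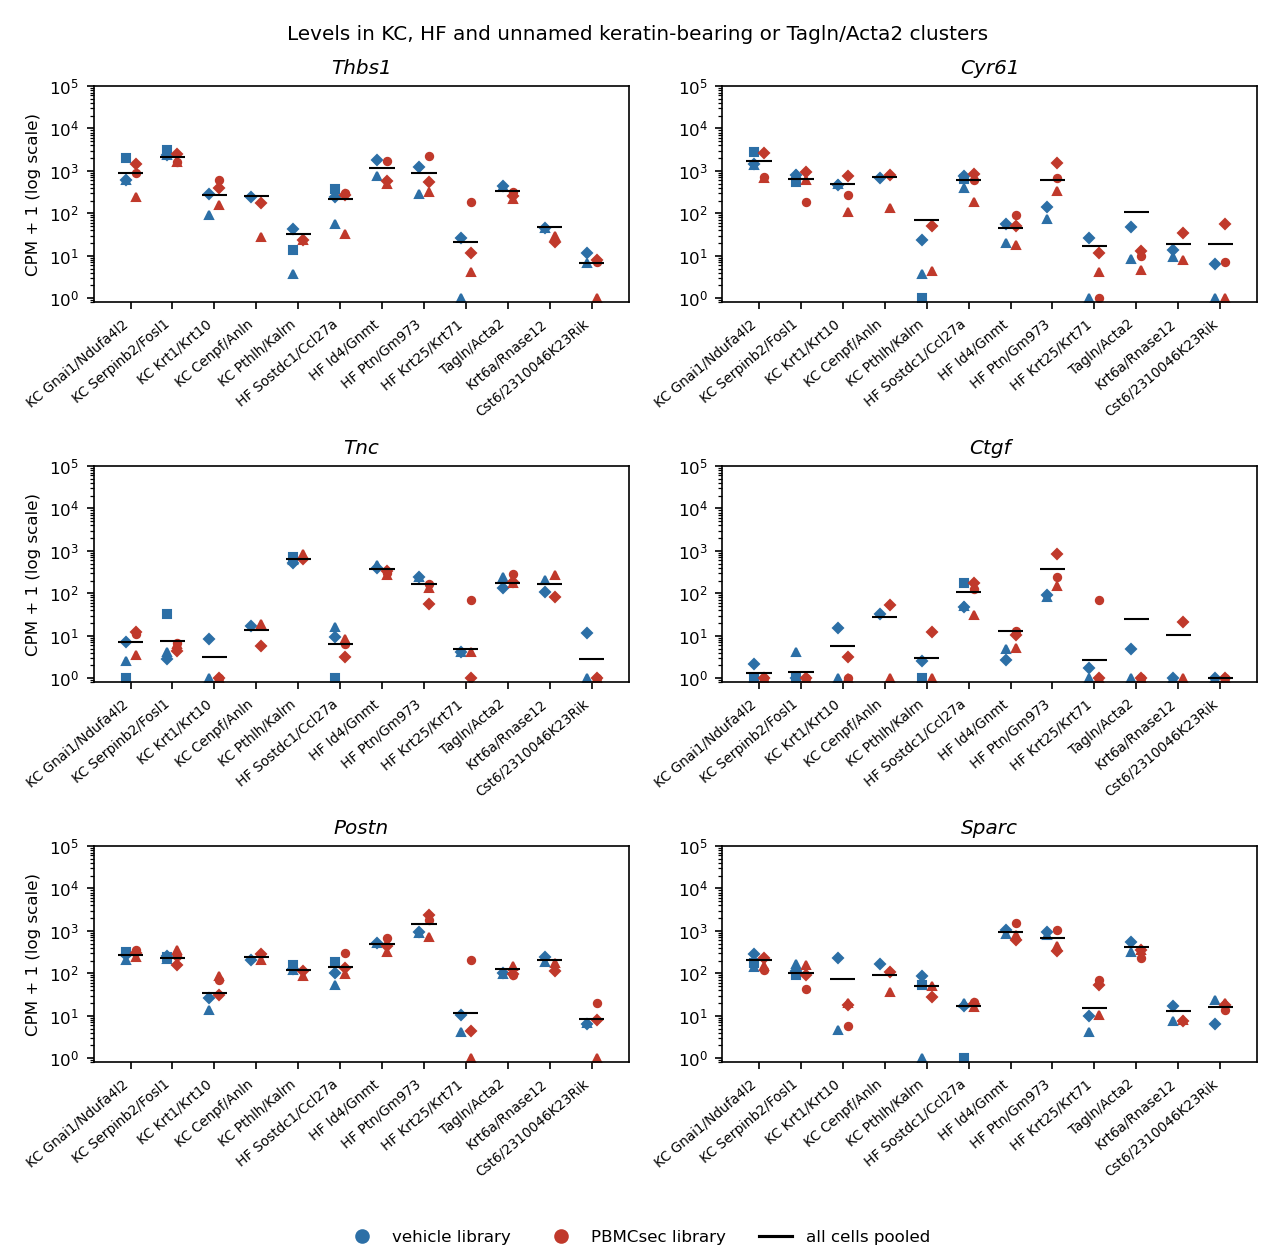
CPM + 1 on a log scale for 6 genes in the KC and HF clusters and in the 3 unnamed clusters led by Tagln and Acta2, by Krt6a and Rnase12 and by Cst6 and 2310046K23Rik; points are libraries with at least 10 cells (blue vehicle, red PBMCsec, shapes as for FB clusters) and lines are all cells pooled. Thbs1 and Cyr61 are high in the Gnai1/Ndufa4l2 and Serpinb2/Fosl1 KC clusters (Thbs1 2182 CPM in the latter), where Tnc is at 6.24 and 6.41 CPM, and Tnc is high in the Pthlh/Kalrn cluster (638 CPM), where Thbs1 is at 31.1 CPM.

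For each member, the genes most alike in pattern were taken by Pearson's r of log2(CPM + 10) over the 36 clusters, among 9315 genes with at least 500 UMIs. These are descriptions over clusters that share libraries. Sparc was most like Serpinh1 (r = 0.94), the collagen chaperone HSP47, then Ppic and Sspn (both 0.93). Thbs2 went with Antxr1 (0.93), Epb41l3 and Adamtsl5 (both 0.92). Cyr61 was closest to Klf9 (0.91), Cavin1 (0.89) and Cavin3 (0.86), and cavins build caveolae. Fn1 went with Ifi205 (0.91), Eya4 and Cpq (both 0.90), and Postn with the syndecan Sdc2 (0.90), Dsel and Nbl1 (both 0.89). Tnxb resembled Entpd2 and Clec3b (both 0.90), the latter encoding tetranectin, and Pcolce2 (0.89). Wisp2 resembled the proteoglycan gene Lum (0.90), Cthrc1 and Bdh2 (both 0.89). The epithelial members had weaker neighbours: Id4 (0.84), Wdr35 (0.84) and Fhl2 (0.82) for Tnc, Sertad4 (0.79), Col7a1 (0.78) and Sema5a (0.77) for Thbs1, and Hmcn1 (0.75), Rbbp9 (0.72) and Bgn (0.71) for Ctgf. Among members, Tnxb and Wisp2 (r = 0.88) and Postn and Thbs2 (0.85) were the closest pairs over all 36 clusters.

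PBMCsec was then compared with vehicle on counts summed per library and class, with levels scaled by TMM, a correction for library composition. In FBs, Fn1 and Postn were on average lower after PBMCsec, but edgeR's quasi-likelihood test called none of the 10 genes, all of which had enough counts to be tested. It called 0 of 9177 genes in FBs (0%), with 127 higher and 109 lower at an unadjusted p under 0.05, and DESeq2 and limma-voom called 0 as well. No member separated the groups of FB libraries without overlap, as 1.94% of all genes tested did. The median log2 fold change of the 10 genes was -0.09, against 0.01 for all genes tested. With 4 libraries against 4, the smallest p of the exact two-sided permutation test over 70 labellings is 0.0286.

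Fn1 in FBs had TMM-scaled levels of 5882, 1787, 6333 and 5695 CPM in PBMCsec libraries 1 to 4. In vehicle libraries 1 to 4 the levels were 11663, 11093, 6471 and 6165 CPM. Vehicle libraries 1 and 2, with 28 and 20 FBs, were the high ones, PBMCsec library 2 was the low one, and libraries 3 and 4 of both groups were close. The groups overlapped, since PBMCsec library 3 lay above vehicle library 4. The log2 fold change was -0.84 (SE 0.36, unadjusted p = 0.0362 by edgeR and 0.9998 after adjustment, exact permutation p = 0.0571). With only libraries of at least 50 FBs, which leaves out vehicle libraries 1 and 2, it was -0.36, and without PBMCsec library 2 it was -0.56. Inside the Sfrp2/Fn1 cluster unscaled levels were 9195, 2050, 8734 and 8215 CPM after PBMCsec. Vehicle libraries 1, 3 and 4 had 17083, 11592 and 8679 CPM there. Vehicle library 1 was again the highest and PBMCsec library 2 the lowest. The value of vehicle library 1 rests on 10 cells, and 1 cell held 469 of its 1480 Fn1 UMIs. The Mrgprg/Smpd3 cluster, also high in Fn1, made up 10.3 to 21.2% of FBs after PBMCsec and 11.9 to 32.1% after vehicle. Its share was lowest in PBMCsec library 2 and highest in vehicle library 1. In vehicle library 2, also high in Fn1, the share was 15%, beside 15.1 and 15.2% in PBMCsec libraries 1 and 3. The part of this share in the FB values was not tested.

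Postn in FBs had TMM-scaled levels of 1977, 2510, 1947 and 1410 CPM after PBMCsec. Vehicle libraries 1 to 4 had 2235, 3195, 2968 and 2379 CPM. PBMCsec library 2 reached into the vehicle range, so the groups overlapped, and the log2 fold change of -0.46 (SE 0.23) had an unadjusted edgeR p of 0.0666 and an exact permutation p of 0.0857, and was not called. Tnxb, the level gene of the FB clusters, was also level between groups, with 1348, 1212, 1095 and 1052 CPM after PBMCsec and 1426, 1254, 1048 and 1407 CPM after vehicle. Its log2 fold change was -0.13 (SE 0.20).

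Sparc in FBs had 5982, 4930, 6901 and 8921 CPM after PBMCsec and 4716, 10557, 6215 and 6272 CPM after vehicle, on the TMM scale. The highest and the lowest library were both vehicle libraries, those with fewest FBs, and the log2 fold change was -0.05 (SE 0.27). Thbs2 had 461, 367, 484 and 449 CPM after PBMCsec and 631, 601, 369 and 393 CPM after vehicle, a log2 fold change of -0.16 (SE 0.24). Its vehicle libraries 1 and 2 were again the high pair.

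Cyr61 in FBs had 783, 190, 730 and 712 CPM after PBMCsec and 1014, 1182, 396 and 516 CPM after vehicle (TMM-scaled, log2 fold change -0.34, SE 0.43). Vehicle libraries 1 and 2 were the highest and PBMCsec library 2 the lowest, as for Fn1. The summed level of 19 immediate early and dissociation genes in FBs was 15055, 8066, 10943 and 7596 CPM after PBMCsec and 13123, 14908, 6866 and 6782 CPM after vehicle, so vehicle libraries 1 and 2 were high here too. Its part in the Cyr61 values was not tested.

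The remaining 4 genes were scarce in FBs and spread widely. Tnc ranged from 28.1 to 110.5 CPM after PBMCsec and from 6.03 to 183 CPM after vehicle. Thbs1 ranged from 37.95 to 351 CPM and from 53.6 to 203 CPM. Ctgf ranged from 6.83 to 149.2 CPM and from 6.53 to 61.4 CPM, where the value of vehicle library 2 was 1 UMI. Wisp2 ranged from 21.7 to 239 CPM and from 84.9 to 131 CPM, with 64.4% of FBs positive in PBMCsec library 4 and 7.35% in PBMCsec library 2. Their log2 fold changes lay between 0.12 and 0.55 with SE of 0.47 to 0.80. In PBMCsec library 1, a single FB held 208 of 543 Thbs1 UMIs, and 72 of 231 Ctgf UMIs were also in 1 cell.

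**Figure D4:**
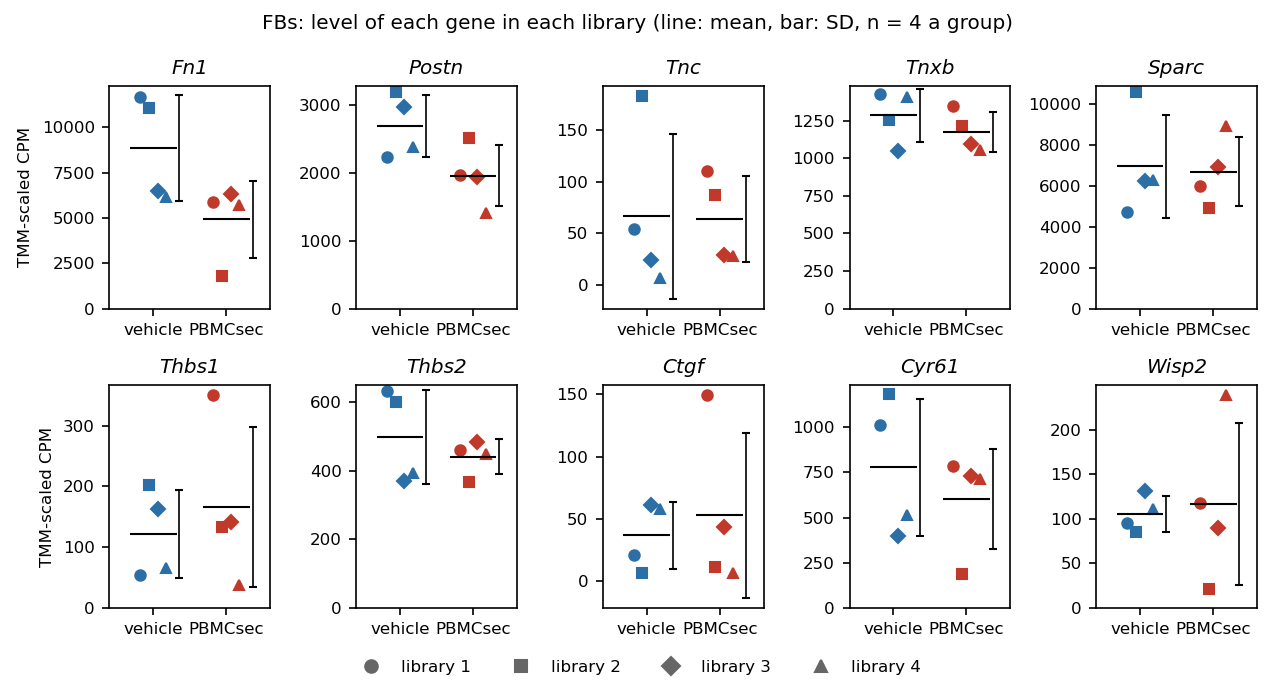
TMM-scaled CPM of each gene in FBs of each library, vehicle (blue) and PBMCsec (red), with the mean as a line and the SD as a bar (n = 4 a group); shapes give the library number. For Fn1, vehicle libraries 1 and 2 lie at 11663 and 11093 CPM, PBMCsec library 2 lies at 1787 CPM, and the other 5 libraries lie between 5695 and 6471 CPM.

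Genes around the set were taken from lists chosen with earlier results of these data known. No gene of any list was called in FBs. Of 17 relatives in the same families, 8 were tested, with 1 higher and 1 lower at an unadjusted p under 0.05: Smoc2, a SPARC relative, had a log2 fold change of 1.38 (SE 0.46) and Thbs4 one of -2.70 (SE 1.07). Thbs4 was at 478 and 510 CPM in vehicle libraries 1 and 2 and at 18.3 and 21.1 CPM in vehicle libraries 3 and 4, so that value followed the libraries with fewest FBs. The abundant relatives Fstl1 and Sparcl1 had -0.52 (SE 0.30) and 0.58 (SE 0.52).

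Of 13 receptors for these proteins, 10 were tested in FBs, and their log2 fold changes lay between -0.47 and 0.95. The most abundant, Lrp1 and Cd47, had 0.07 each, and the integrin subunit Itgav and the syndecan Sdc1 had -0.47 (SE 0.29) and 0.95 (SE 0.71). Among YAP and TEAD targets other than the members, 14 of 20 were tested, with Ccdc80 at 0.12, Axl at 0.14, F3 at 0.94 (SE 0.70) and Gadd45a at -0.62 (SE 0.31), none below an unadjusted p of 0.05. Of 17 regulators 16 were tested, with Tgfbr2 at -0.41 (SE 0.27), Wwtr1, which encodes TAZ, at -0.20 and Tgfb1 at 0.64 (SE 0.44). Of 8 myofibroblast genes 7 were tested, with Lox, a collagen crosslinker, at -0.43 (SE 0.27), Lrrc15 at -0.38 (SE 0.34) and Acta2 at -0.94 (SE 0.60). All 19 immediate early and dissociation genes were tested, and 3 were higher at an unadjusted p under 0.05. The heat shock genes Hspa1a and Hspa1b had 1.70 (SE 0.60) and 1.58 (SE 0.64), Hspb1 was the other, and Fos and Jun had -0.36 and 0.01.

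In HF, 9 of the 10 genes could be tested, in 4 PBMCsec and 3 vehicle libraries, because vehicle library 1 held 8 HF cells. None was called, nor was any of 9607 genes tested (0%, 207 higher and 126 lower at an unadjusted p under 0.05, 5 by DESeq2). Library numbers were taken to pair the samples in HF. With the number as a block, edgeR called 2 genes, Krt75 and Krt79, neither a member. The HF p-values that follow do not use the block. Tnc was lower after PBMCsec, with 121, 101, 66.5 and 143 CPM (TMM-scaled) against 203, 157 and 226 CPM in vehicle libraries 2 to 4. The groups did not overlap, as in 4.69% of all genes tested in HF. Its log2 fold change was -0.84 (SE 0.27, unadjusted edgeR p = 0.00898, not called after adjustment, exact permutation p = 0.0571). The Id4/Gnmt cluster, the one richest in Tnc, made up 20.3, 21.4, 12.1 and 37.4% of HF cells after PBMCsec and 17.9, 30.2 and 33.1% in vehicle libraries 2 to 4. Inside that cluster the unscaled levels were 308, 344 and 273 CPM in PBMCsec libraries 1, 3 and 4 and 390 and 468 CPM in vehicle libraries 3 and 4. Inside the Ptn/Gm973 cluster they were 166, 55.8 and 131 CPM against 241 and 241 CPM.

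Ctgf in HF had 130, 568, 326 and 30.3 CPM (TMM-scaled) after PBMCsec and 136, 23.02 and 26.8 CPM in vehicle libraries 2 to 4. The groups overlapped and the log2 fold change of 2.33 (SE 0.91) had an unadjusted p of 0.0259 (edgeR, not called after adjustment) and an exact permutation p of 0.171. It was 1.72 without PBMCsec library 2 and 3.32 without vehicle library 2, and was not called in either. In PBMCsec library 2, 1 of 28 cells held 71 of 129 UMIs. Summed SMC/PC markers (8 of 11 detected in HF) reached 5938 CPM in that library and 21.5 to 797 CPM in the other PBMCsec libraries, against 40.04 to 391 CPM after vehicle, and their part in the value was not tested. All 19 immediate early and dissociation genes had a positive log2 fold change in HF (2 at an unadjusted p under 0.05, median 0.66), and their sum was 21130, 13034, 21273 and 6983 CPM after PBMCsec and 18762, 8221 and 5529 CPM in vehicle libraries 2 to 4. PBMCsec library 4 and vehicle libraries 3 and 4 were low in this sum and in Ctgf. They were also low in Cyr61 (101, 167 and 97.7 CPM), as was PBMCsec library 2 (119 CPM), and the part of the sum in either value was not tested. Inside the Ptn/Gm973 cluster the unscaled levels were 241, 837 and 148.5 CPM in PBMCsec libraries 1, 3 and 4 and 91.1 and 82.8 CPM in vehicle libraries 3 and 4. Postn (0.41, SE 0.37), Sparc (0.21, SE 0.36), Thbs1 (0.10, SE 0.43) and Cyr61 (0.95, SE 0.68) had no unadjusted p under 0.05 in HF.

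In KCs, 8 genes were tested and none was called (0 of 8983 genes, 0%, 45 higher and 32 lower at an unadjusted p under 0.05 and 2 by DESeq2). None separated the groups without overlap, as 2.52% of all genes did. Thbs1 was at 1228, 80.8, 1155 and 283 CPM (TMM-scaled) after PBMCsec and at 1994, 624 and 596 CPM in vehicle libraries 2 to 4, and Cyr61 was at 388, 808, 1411 and 264 CPM against 1451, 675 and 737 CPM. Both spread more within a group than between groups, with log2 fold changes of -0.61 (SE 0.72) and -0.41 (SE 0.50). Tnc was at 21.9, 11.5, 46.1 and 307 CPM against 120, 106 and 106 CPM. The Pthlh/Kalrn cluster, its main source, made up 4.21, 15.8, 7.28 and 37.5% of KCs after PBMCsec and 24.4, 21.9 and 17.9% in vehicle libraries 2 to 4. That cluster also had 3 HF markers. Without PBMCsec library 4 the log2 fold change of Tnc in KCs moved from -0.07 to -1.79 and was still not called. Inside the Pthlh/Kalrn cluster Tnc lay at 643 and 852 CPM (unscaled) in PBMCsec libraries 3 and 4 and at 720, 512 and 609 CPM in vehicle libraries 2 to 4.

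In DC/Mac, Fn1, Sparc and Thbs1 were tested and none was called (0 of 5603 genes, 0%, 266 at an unadjusted p under 0.05 and 7 by DESeq2), and none separated the groups, as 2.69% of all genes did. Thbs1 had 231, 108, 54.2 and 32.8 CPM after PBMCsec and 7.82, 27.3, 44.6 and 0 CPM after vehicle (TMM-scaled), where 0 of 54 cells allows up to 7.88 CPM. PBMCsec library 4 lay below vehicle library 3, so the groups overlapped, and the log2 fold change was 2.27 (SE 0.72, unadjusted p = 0.00677 and adjusted p = 0.817 by edgeR, exact permutation p = 0.0571). It was 1.49 without PBMCsec library 1 and 3.77 without vehicle library 3, and was not called in either. Without the filter on low counts, the edgeR adjusted p was 3.1e-07. That setting also called other genes in DC/Mac, where the main test called none. Their share of all genes tested in that setting is not given here. The signal came from few cells: 31 of 520 had a Thbs1 UMI, and 5 cells held 206 of the 292 UMIs. With the top cell of each library removed, unscaled levels were 134, 52.6, 4.25 and 20.9 CPM after PBMCsec and 4.05, 0, 19.9 and 0 CPM after vehicle. The change of Thbs1 in DC/Mac exceeded that in FBs (-2.10 for FBs minus DC/Mac, exact permutation p = 0.0286), but not after adjustment over 23 such comparisons (adjusted p = 0.329). That difference is taken from group means of each library's log2 CPM, not from the edgeR fold changes. Fn1 in DC/Mac had 724, 554, 600.5 and 746 CPM after PBMCsec and 926, 1083, 631 and 660 CPM after vehicle, a log2 fold change of -0.32 (SE 0.21).

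In ECs, with 3 libraries a group of 10 to 16 cells, Fn1, Sparc and Cyr61 were tested and none was called. edgeR called 1 of 1486 genes (0.0673%), the heat shock gene Hspb1, a call that was lost without vehicle library 2 or 3, and 9.56% of genes separated the groups without overlap, none of them a member. Cyr61 had 137, 1437 and 254 CPM in PBMCsec libraries 1, 3 and 4 and 65.1, 213 and 390 CPM in vehicle libraries 2, 3 and 4 (TMM-scaled log2 fold change 1.56, SE 0.80). Of the 19 immediate early and dissociation genes, 17 were tested in ECs, and all 17 had a positive log2 fold change. An unadjusted p under 0.05 was found for 15 of them, and for 51 higher and 27 lower genes among all 1486 tested. The sum of the list was 33463, 32820 and 10838 CPM after PBMCsec against 3597, 4602 and 8844 CPM after vehicle. PBMCsec library 4 and vehicle library 4 were thus close. The part of these genes in the Cyr61 value was not tested. In TCs no member reached the count needed for a test. There, 0 of 4714 genes were called (0%), with 2.38% not overlapping and 78 higher and 78 lower at an unadjusted p under 0.05. DESeq2 called 3, and edgeR 14 with library numbers as a block, where the numbers were taken to pair the samples.

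Summed over all kept cells, Sparc had 1829, 1511, 2747 and 2426 CPM after PBMCsec and 1036, 1135, 1589 and 1574 CPM after vehicle (TMM-scaled log2 fold change 0.67, SE 0.24, unadjusted edgeR p = 0.0188, exact permutation p = 0.0857). Ctgf had 67.0, 94.6, 79.3 and 15.1 CPM against 9.35, 26.8, 32.5 and 22.3 CPM (1.44, SE 0.53, unadjusted edgeR p = 0.0234, exact permutation p = 0.114). For both, 1 PBMCsec library lay within the vehicle range. Library numbers were taken to pair the samples here, but the p-values above do not use the pairs. PBMCsec was higher in 4 of 4 pairs for Sparc and in 3 of 4 for Ctgf. Wisp2 was also higher in 4 of 4 pairs, and Postn, Tnxb and Thbs2 in 3 of 4. Tnc and Cyr61 were higher in 2 of 4, and Fn1 and Thbs1 in 1 of 4. Such a count was not made for the other genes tested, and equal numbers were not shown to pair the libraries. No result is therefore drawn from these counts. With the number as a block the log2 fold changes of Sparc and Ctgf were 0.66 and 1.24, and neither was called. With every barcode kept, Sparc was at 0.24. edgeR called neither, nor any of 13182 genes (0%, 260 higher and 75 lower at an unadjusted p under 0.05), no member separated the groups as 1.79% of all genes did, and DESeq2 called 10 genes, none a member. The summed FB markers, all 9 detected, were 13140, 14021, 18937 and 12037 CPM after PBMCsec and 8920, 5787, 10277 and 10872 CPM after vehicle, without overlap, while Sparc within FBs had a log2 fold change of -0.05. FBs made up 22.7, 21.7, 31.6 and 16.7% of kept cells after PBMCsec and 18.5, 9.62, 18.7 and 18.7% after vehicle, with overlap. The mean number of UMIs per FB, over the genes tested in FBs, was 9986, 8861, 9033 and 10411 after PBMCsec. After vehicle it was 8260, 7989, 7994 and 8601, without overlap. The part of either in the Sparc values was not tested.

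**Figure D5:**
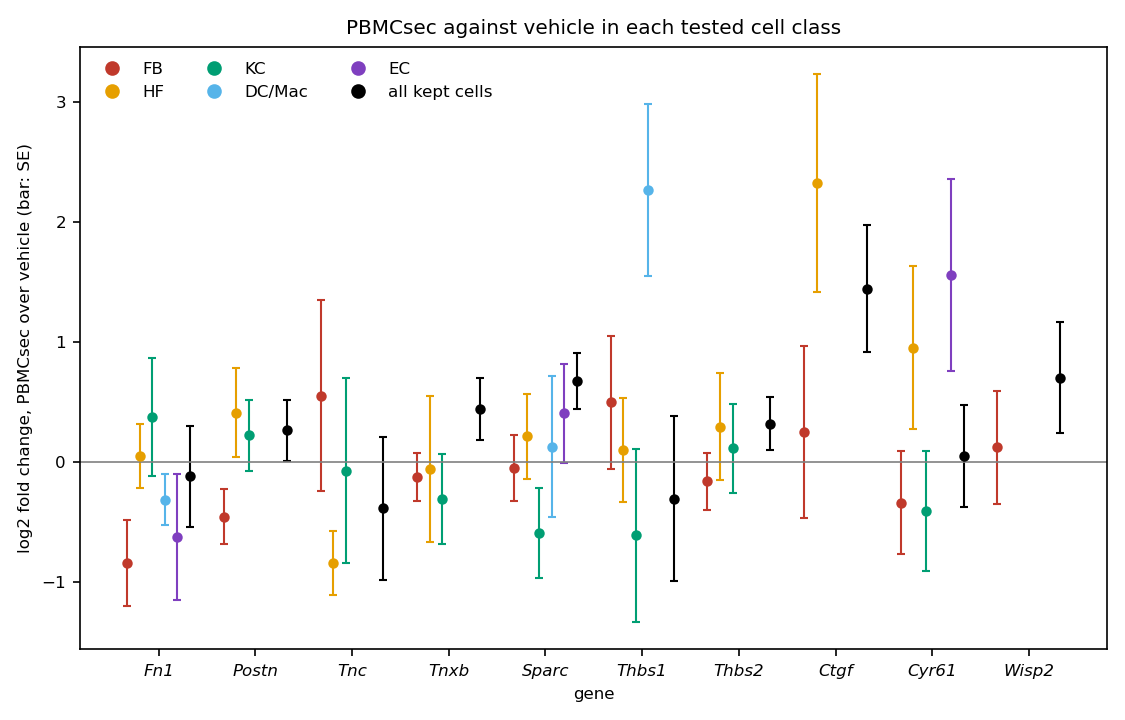
Log2 fold change of PBMCsec over vehicle, with the SE as bars, for each gene in each class where it had enough counts (FB, HF, KC, DC/Mac, EC and all kept cells). Most bars cross or come close to 0, the largest values are Ctgf in HF (2.33, and 1.72 to 3.32 on leaving out 1 library) and Thbs1 in DC/Mac (2.27, and 1.49 to 3.77), and none passed the threshold after adjustment.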

How the data were processed

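For each library the authors deposited a matrix of raw counts, the UMIs of every gene in each barcode called as a cell, aligned to mm10. Cell Ranger is given as v4.0 in the paper and as 3.0.2 in the submitters' processing notes. Kept cells had 500 to 4000 genes, no more than 20000 UMIs and no more than 5% of counts from mitochondria, and Gm42418, Gm17056 and Gm26917 were dropped. Seurat 5.3.0 under R 4.3.3 integrated the libraries and formed clusters (2000 features, 30 dimensions, resolution 1). Naming required 3 markers of a class in 25% of a cluster's cells at 2-fold higher CPM. Ties were settled by the markers among the cluster's top 10 genes. A name was dropped where another class had more markers among those genes. It was also dropped in clusters of low depth with no marker of the class among them. Other clusters could keep a name with no marker of their class among the top 10 genes, such as the Sfrp2/Fn1 cluster. These criteria were chosen once clusters had been inspected. Because Scrublet in scanpy 1.11.5 marked just 21 cells (0.341%), it was judged not to have worked, and cells with the top 5% of its scores were removed as an alternative only.

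UMIs were added up per library and class where a library had at least 10 cells. The main test was the quasi-likelihood test of edgeR 4.0.16, with TMM factors, its own filter on low counts and p-values adjusted by Benjamini-Hochberg over all genes tested, called below 0.05. DESeq2 1.42.0 and limma 3.58.1 were alternatives. Levels across classes and clusters are not TMM-scaled. Single values were also compared by exact two-sided permutation on log2 CPM with a prior count of 2. The keratin and collagen genes listed by the study were left out of the tests by class, keratins outside KCs and HF and collagens outside FBs. Over all kept cells none of them was left out. The p-values measure only the spread between these libraries, which may be technical. The testing script was tested on simulated data.

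The members, gene lists and tests were chosen with earlier results of these data known. Named genes were the 10 members, for each the 3 most alike genes over clusters, and per list the 2 most abundant and the 2 with the smallest unadjusted p in FBs. Coordinates come from GENCODE M21 (GRCm38) and promoters from RefSeq (GRCm38.p6), whose table matched 6 members. Genes overlapping Fn1, Thbs1, Tnc, Ctgf and Tnxb lie on the opposite strand. Equal library numbers occur in both groups, and the labels do not say what a number means. Deviations from the group means correlated above 0.1 for every pair of equal numbers in HF (0.11, 0.12 and 0.40), in TCs (0.30, 0.27, 0.18 and 0.42) and over all kept cells (0.29, 0.30, 0.47 and 0.57), where the numbers were taken to pair the libraries. In DC/Mac the correlations were 0.32, 0.086, 0.28 and 0.28, with libraries 2 below 0.1, a limit that is a choice. In FBs they were 0.16, -0.028, 0.060 and 0.15. KCs had -0.0045, 0.16 and 0.24 for libraries 2 to 4, and ECs 0.17 and 0.056 for libraries 3 and 4. Unequal numbers were not compared, so these values cannot show that equal numbers pair the libraries. A real pairing would hold in every class, so using it in some classes only is also a choice. Neither time point nor control solution could be mapped, and both were not analysed here.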

Additional observations from a re-analysis of the deposited data

Results flagged for a closer look

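Of 63 groups of 4 libraries looked at (members by class and treatment), 3 held a library whose gap to the nearest of the others, divided by the range, was above Dixon's critical value, and chance gives about 1 in 20. Fn1 in FBs of PBMCsec library 2 was 1787 CPM, with the other 3 at 5695 to 6333 CPM. Cyr61 in FBs of the same library was 190 CPM, with the others at 712 to 783 CPM. That library had 68 FBs and 313 kept cells, the fewest of the PBMCsec group. Tnc in KCs of PBMCsec library 4 was 307 CPM, with the others at 11.5 to 46.1 CPM, and the Pthlh/Kalrn cluster made up 37.5% of its KCs. No change of a member differed between FBs and another class after adjustment over 23 comparisons (smallest adjusted p = 0.329), and 2 had an exact permutation p of 0.0286, Thbs1 against DC/Mac and Postn against KCs. For Postn the FB minus KC difference was -0.79, from group means of log2 CPM in 4 PBMCsec and 3 vehicle libraries, not from the edgeR fold changes.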

How the results depend on the processing

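Of 571 values of members under an alternative, 509 kept direction and call, 60 changed sign (33 of them on leaving out a library) and 2 became called. Without the filter on low counts, Thbs1 in DC/Mac was 2.33 on the log2 scale (adjusted p = 3.1e-07) and Cyr61 in ECs 1.68 (adjusted p = 0.0237). That setting called 114 genes in DC/Mac, 59 in ECs, 18 in HF, 4 in KCs and 38 in TCs. The number of genes tested without the filter is not given here, so these counts cannot be read as shares. DESeq2 called 7, 5, 5, 2 and 3 in these classes and 10 over all kept cells. FBs gated at a mitochondrial limit of 10% gave 1 call (Sostdc1). The cause of these shifts was not tested.

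With the library number as a block, calls were 6 in DC/Mac, 0 in ECs, 2 in HF and 14 in TCs, and were unchanged at 0 in FBs, KCs and all kept cells. Only in HF, TCs and all kept cells were the numbers taken to pair the libraries, a choice by class although the same libraries underlie every class. Under the block Fn1 in ECs was 0.26, Ctgf and Wisp2 in FBs -0.34 and -0.048, Sparc, Thbs1 and Thbs2 in HF -0.12, -0.43 and -0.25, Thbs2 in KCs -0.0032 and Cyr61 over all kept cells -0.025.

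Other changes of sign in FBs were Tnc by DESeq2 (-0.034), Ctgf (-0.59) and Wisp2 (-0.26) by limma-voom, and, with only libraries of at least 50 FBs, Sparc (0.095), Thbs2 (0.21), Ctgf (-0.11), Cyr61 (0.41) and Wisp2 (-0.031). In FBs gated by markers, Tnc (-1.06), Sparc (0.064) and Ctgf (-0.30) changed sign at the 5% limit, and Tnc (-0.15) and Sparc (0.078) at 10%. Sparc was 0.0021 without the Ptx3/Ccl2 cluster. With the unnamed Ednrb and Crabp1 clusters added, an alternative chosen after seeing the data, Tnc was -1.14 and Sparc 0.11. With every barcode, values over all kept cells were 0.18 for Tnc, -0.16 for Tnxb and -0.12 for Cyr61.

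Leaving out each library in turn gave 0 to 31 calls in ECs (31 without PBMCsec library 4, 0 without vehicle library 2 or 3), 0 to 1 in DC/Mac, HF, KCs and TCs, and 0 in FBs. Ranges that crossed 0 were, in FBs, Thbs1 -0.18 to 0.83, Ctgf -0.95 to 0.61, Sparc -0.23 to 0.22, Wisp2 -0.46 to 0.44 and Tnc -0.14 to 1.55. In HF they were Thbs1 -0.43 to 0.43, Thbs2 -0.25 to 0.58, Sparc -0.015 to 0.48, Fn1 -0.14 to 0.31 and Tnxb -0.63 to 0.61. In KCs they were Tnc -1.79 to 0.27, Thbs2 -0.20 to 0.55, Tnxb -0.58 to 0.018, Thbs1 -1.04 to 0.19, Cyr61 -0.99 to 0.015 and Fn1 -0.0032 to 1.40. In DC/Mac Sparc ran from -0.15 to 0.51, in ECs Cyr61 from -0.022 to 2.19 and Fn1 from -0.92 to 0.45, and over all kept cells Fn1 from -0.44 to 0.24, Cyr61 from -0.41 to 0.39 and Thbs1 from -0.71 to 0.19. Few FBs in vehicle libraries 1 and 2 (28 and 20 cells) and few ECs limit these values.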
